A study of Mus musculus with 8 samples.

Results

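The iris sphincter, the ring of muscle that narrows the pupil, was divided by the authors' clustering into a pair of nuclear types, sphincter 1 and sphincter 2, and the gene content of these types was compared in untreated irises. Members were all nuclei that carried either sphincter type in the deposited annotation and came from the 3 untreated libraries. There were 544 sphincter 1 nuclei (50, 184 and 310 in replicates 1 to 3) and 352 sphincter 2 nuclei (26, 136 and 190), together 896 of the 14365 untreated nuclei and of 1723 sphincter nuclei in all 8 libraries, which held 34357 nuclei and 22873 genes. Single-nucleus RNA-seq was carried out on irises of WT albino female mice aged 6 to 8 weeks, with 5 or 6 irises pooled in each library. Untreated mice received no drug. The 3 constricted libraries came from mice given hourly pilocarpine eye drops in the light, and the 2 dilated libraries from mice given hourly phenylephrine and cyclopentolate drops in the dark. As each library is a pool, the replicate is the library and not the single mouse, and the counts describe nuclear RNA, unspliced transcripts included.

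The sphincter and the dilator are the opposing muscles of the iris. From lineage tracing, the paper proposes that neural crest cells supply most progenitors of the dilator and contribute little to sphincter 1. In its model the other sphincter type goes with the dilator. Most sphincter 1 cells are presumed there to come from unlabelled neural crest or from progenitors local to the eye. Parasympathetic nerves release acetylcholine onto the sphincter, where muscarinic receptors act through Gq, phospholipase C and calcium release to drive smooth muscle myosin. Sympathetic nerves contract the dilator through alpha-1 adrenergic receptors.

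The summed profiles held 186010, 627138 and 1107793 UMIs (unique molecular identifiers, 1 per captured transcript) in sphincter 1, and 109148, 480546 and 674523 in sphincter 2, so replicate 1 gives the least precise values. Median UMIs per nucleus were 3814.5, 3175.5 and 3377.5 in sphincter 1, and 4523.5, 3334 and 3461.5 in sphincter 2. Malat1 took 17.7% of sphincter 1 UMIs and 15.5% of sphincter 2 UMIs. Untreated replicate 1 and dilated replicate 1 shared 63 cell barcodes, 4.26% of the smaller library. Barcodes found in another library made up 7 sphincter 1 nuclei and no sphincter 2 nucleus among the untreated. A doublet caller marked 49 sphincter 1 nuclei (9.01%) and 14 sphincter 2 nuclei (3.98%). The 6 genes fixed as sphincter 1 markers (Ttn, Mybpc1, Ctnna3, Ckm, Rbfox3 and Nptx2) were all higher in sphincter 1. That is no independent check of the labels, as the types were drawn from these same counts. The smooth muscle markers Acta2 and Myh11 were high in both types. The defining genes of pericytes, Rgs5 and Higd1b, were at 0 UMIs in both types. The 7 pericyte and vascular smooth muscle markers together were nonetheless at 43.0 to 73.3 CPM in sphincter 1 (CPM is the gene's UMIs per 1000000 UMIs of the summed profile) against 27.5 to 34.1 in sphincter 2, and the only tested member, Cspg4, was called higher in sphincter 1. Stroma 2 markers summed to 156 to 268 CPM against 106 to 151 in sphincter 2, and to 7537 to 9247 in stroma 2 itself. Of the 2 tested stroma 2 markers, Tfap2b was called higher in sphincter 1. Leukocyte markers were at 20.8 to 43.0 against 16.6 to 18.3 CPM and endothelial markers at 25.5 to 75.3 against 25.0 to 128 CPM, far under the 4839 to 6077 and 8310 to 9335 CPM of those cells. Stroma 1 markers stood at 505 to 895 CPM in sphincter 1 and 1008 to 1421 CPM in sphincter 2, where stroma 1 nuclei had 27237 to 27780 CPM. The part of these other cells in any gene below was not tested.

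The smooth muscle actin Acta2 and myosin Myh11 were at similar levels in both types, while the contractile genes Mylk, Ppp1r12a, Des and Actg2 differed. Sphincter 1 carried genes of striated muscle, the muscarinic receptor Chrm3 and many calcium and channel genes at higher levels. Higher in sphincter 2 were genes of Wnt and other secreted factor pathways, inhibitors and receptors alike, and genes that the dilator also holds. Of 8238 genes with enough counts to test, 639 (7.76%) were called higher in sphincter 1 and 511 (6.2%) higher in sphincter 2, where a call asks for a log2 fold change beyond 0.6 in size and an adjusted p below 0.05 in edgeR's paired quasi-likelihood fit. No p is printed for this comparison because the authors drew the types from these same counts. A call describes a difference that was large for its fitted spread, and not always of 1 sign in every library. It is no test that the types exist. The other 14635 genes were under the count filter, and 3254 of these had no UMI in either type. Among the genes higher in sphincter 1, 441 differed by more than 2-fold, 185 by more than 4-fold and 77 by more than 8-fold. Among those higher in sphincter 2 the numbers were 322, 70 and 8. The median size of a called difference was 1.34 log2 units for sphincter 1 and 1.14 for sphincter 2, while the median over all tested genes was −0.01. In all 3 libraries the sign was the same for 599 of the 639 and for 484 of the 511. Called genes were long, with a median of 87.2 kb for sphincter 1 and 87.8 kb for sphincter 2, against 38.0 kb for tested genes. The part of gene length in the shares of the lists below was not tested. A gene could pass the count filter through 1 type alone, which by itself favours called genes in these shares. Without replicate 3, which holds most of the nuclei, the calls were 371 and 282, and DESeq2 made 336 and 225.

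**Figure D1:**
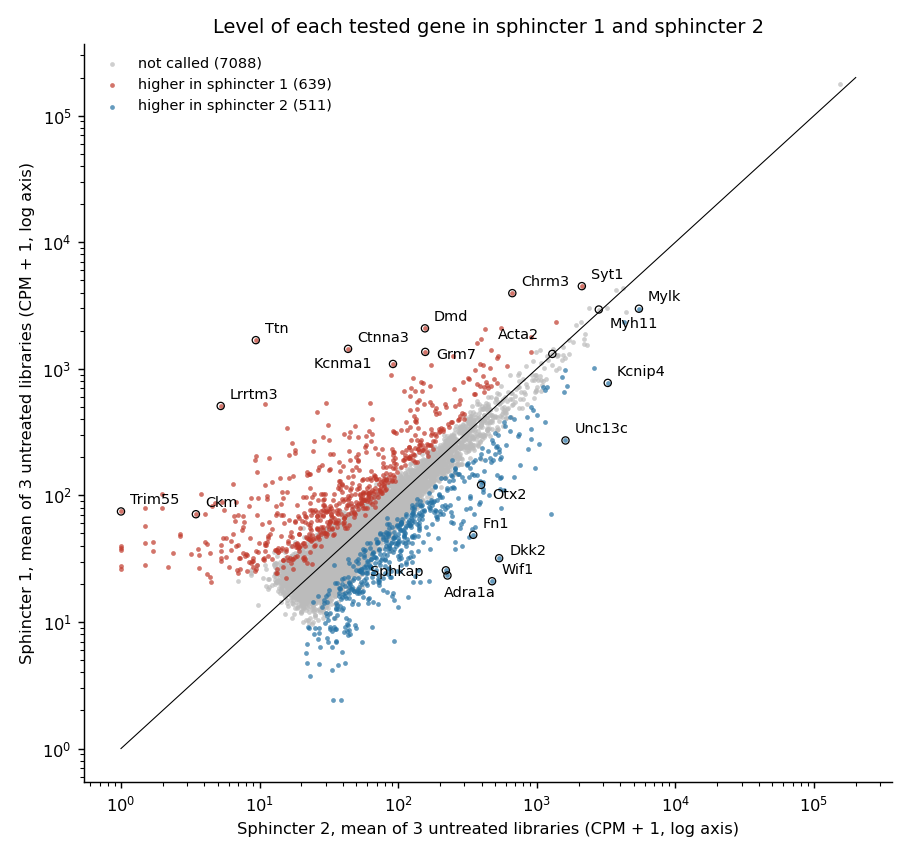
Each point is 1 tested gene, with its mean level in sphincter 2 on the x axis and in sphincter 1 on the y axis (CPM + 1, 3 untreated libraries, both axes logarithmic). Red points are the 639 genes called higher in sphincter 1, blue points the 511 called higher in sphincter 2, grey points the genes not called, and the line marks equal levels. Ttn, Lrrtm3 and Trim55 lie far above the line, Wif1, Dkk2 and Adra1a lie below it, and Acta2 and Myh11 lie on it.

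Genes of the sarcomere, the contractile unit of striated muscle, were higher in sphincter 1. Ttn (chromosome 2, 76703980 to 76982547, minus strand, mm10), which encodes the giant spring protein titin, was at 2038, 1325 and 1687 CPM in sphincter 1, against 9.16, 4.16 and 11.9 in sphincter 2. The lowest sphincter 1 library was thus far above the highest of sphincter 2, the log2 difference was 7.55 ± 0.22 (SE), and the dilator, at 11.8, 8.30 and 8.38 CPM, was level with sphincter 2. A Ttn UMI was seen in 72.8% of sphincter 1 nuclei, in 2.84% of sphincter 2 nuclei and in 1.86% of iris pigment epithelium nuclei, whose median depths per library lay between 3015 and 3581 UMIs. With every nucleus thinned to 1000 UMIs these shares were 57.0%, 0.570% and 0.706%, so the sphincter 2 share was at the background level. Myl1, a myosin light chain of fast skeletal fibres, was at 69.9, 68.6 and 105 CPM against 9.16, 0 and 1.48. As these sphincter 2 values rest on 2 UMIs, the count ratio of 56.6 has a 95% interval of 15.4 to 471, which like all such intervals here covers counting error only. Casq2, the calcium buffer of the sarcoplasmic reticulum, was at 86.0, 87.7 and 112 CPM against 18.3, 2.08 and 5.93. Ckm, the muscle creatine kinase, was at 37.6, 89.3 and 83.0 CPM against 0, 0 and 7.41, and all 5 of its sphincter 2 UMIs came from replicate 3, without which the fitted log2 difference moved from 4.37 ± 0.43 to 7.84. Trim55, a ubiquitin ligase of the sarcomere, was at 86.0, 51.0 and 84.0 CPM and had no UMI in sphincter 2, which makes it at least 30.9-fold higher in sphincter 1 with the floor set at 3 counts over the group. Of 52 striated muscle genes in the files, 16 passed the count filter. Of these, 10 (62.5%) were called higher in sphincter 1 and none in sphincter 2, beside 7.76% and 6.2% of all tested genes. The median log2 difference of the 16 was 1.48. Ttn, Myl1, Ckm and Casq2 had only 11, 2, 5 and 7 UMIs in sphincter 2 and passed the filter through sphincter 1. The share and the median thus rest partly on members admitted by their sphincter 1 level, and describe the list only. Besides Ttn, Myl1, Ckm and Casq2 the 10 were Ldb3, Mybpc1, Nebl, Jph1, Pygm and Pdlim5. A full skeletal set was not seen, since Mybph, Nrap, Myh7b, Myl2, Myoz2 and Xirp2 had no UMI in either type. Markers of skeletal muscle nuclei summed to 19.9 to 32.3 CPM in sphincter 1 and 7.41 to 36.6 CPM in sphincter 2. Myh1, Myh2 and Myh4, which stand in both lists, have no entry among the measured genes, so these sums leave them out. Mybpc3, Tnnt2, Myom1, Xirp1 and Csrp3 of the striated list could not be measured either.

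The dystrophin complex, which ties the cytoskeleton of muscle to the matrix outside, was split between the types. Dmd, dystrophin itself, was at 2414, 1711 and 2136 CPM in sphincter 1 against 229, 83.2 and 153 CPM in sphincter 2, with no overlap and a log2 difference of 3.98 ± 0.14. Sgca, the alpha-sarcoglycan of striated muscle, was at 75.3, 49.4 and 45.1 CPM in sphincter 1 and rested on 1 UMI in sphincter 2 (count ratio 62.5, 95% interval 11.0 to 2495). Cav3, the muscle caveolin, was at 26.9, 33.5 and 33.4 CPM against 0, 16.6 and 7.41. Going the other way, Lama2, the laminin chain to which the complex binds, was at 80.6, 105 and 97.5 CPM in sphincter 1, against 321, 345 and 326 in sphincter 2, a log2 difference of −1.68 ± 0.16. Of 19 tested members 8 were called higher in sphincter 1 (Sgca, Dmd, Cav3, Sntg1, Sgcd, Itga7, Itgb1 and Sntb1) and 3 higher in sphincter 2 (Lama2, Dtna and Utrn, the paralogue of dystrophin), with a median of 0.43. These were 42.1% and 15.8% of the 19, beside 7.76% and 6.2% of all tested genes.

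The promoters of 3 genes that separate the types by their levels are shown so that the letters upstream of a striated muscle gene, a dystrophin start and a sphincter 2 gene can be compared. Each run is the RefSeq window of 300 bases (250 before and 50 after the annotated start, GRCm38.p6, the build of mm10), written along the gene's strand. Capitals mark a MEF2 site in the Ttn window at chr2:76982498-76982797 (minus strand) and a CArG box, the site of serum response factor, in the Dmd window at chrX:82948620-82948919 (plus strand). The Wif1 window at chr10:121033754-121034053 (plus strand) held neither motif and no CAGCTG. A second Dmd window, at chrX:85048045-85048344 (plus strand), likewise held none of the 3. Those of Myl1 and Acta2 held CAGCTG but no exact match to a MEF2 site or to a CArG box (CC, only A or T, then GG). Near matches were not counted. The Acta2 window holds ccctatatgg and ccttgtttgg, which miss the CArG letters by an inner c or g. The Ttn window holds cccaaatagg, which misses them by an inner c. The Dmd window also holds ttatatttag, which resembles the marked Ttn letters but starts with t in place of C and was not counted. The Dmd window is thus not shown to lack a MEF2 site, and the MEF2 shares below leave out such looser matches. 
Ttn: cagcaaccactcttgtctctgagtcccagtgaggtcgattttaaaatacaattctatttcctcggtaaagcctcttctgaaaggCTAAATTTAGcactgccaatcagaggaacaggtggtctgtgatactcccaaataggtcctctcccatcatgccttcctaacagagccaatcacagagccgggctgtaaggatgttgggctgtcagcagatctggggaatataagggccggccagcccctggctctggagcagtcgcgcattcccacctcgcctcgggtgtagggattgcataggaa
Dmd: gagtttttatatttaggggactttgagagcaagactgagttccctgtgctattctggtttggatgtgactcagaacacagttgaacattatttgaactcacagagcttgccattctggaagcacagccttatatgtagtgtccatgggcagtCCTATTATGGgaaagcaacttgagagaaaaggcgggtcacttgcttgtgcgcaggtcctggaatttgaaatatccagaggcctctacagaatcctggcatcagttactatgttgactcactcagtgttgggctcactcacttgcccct
Wif1: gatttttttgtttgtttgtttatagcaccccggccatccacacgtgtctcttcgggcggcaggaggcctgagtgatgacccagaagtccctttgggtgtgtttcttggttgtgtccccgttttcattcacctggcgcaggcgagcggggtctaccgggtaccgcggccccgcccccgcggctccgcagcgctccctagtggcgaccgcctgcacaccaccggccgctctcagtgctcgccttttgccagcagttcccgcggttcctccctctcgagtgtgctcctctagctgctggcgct
These are exact matches of letters on either strand and not shown sites, and a window without a match may still hold a site. Over all genes with such a window, 0.636% had a MEF2 site and 1.81% a CArG box in any window, against 1.48% and 1.48% of the 472 matched genes higher in sphincter 1 and 1.05% and 1.58% of the 380 matched genes higher in sphincter 2. The E-box CAGCTG, which is its own reverse complement and the core of myogenic factor binding, was in 18.3% of all genes, 22.9% of the sphincter 1 set and 19.7% of the sphincter 2 set.

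The main actin and myosin of smooth muscle did not pass the call. Acta2, the smooth muscle actin, was at 1634, 1158 and 1138 CPM in sphincter 1, against 1567, 1174 and 1140.1 in sphincter 2, and the log2 difference of 0.09 ± 0.10 was not called. Myh11, the smooth muscle myosin heavy chain, was at 3193, 2966 and 2660.2 CPM against 2492, 3171 and 2739.7, with overlapping libraries and a difference of 0.13 ± 0.09. Des, the intermediate filament desmin, did differ, at 269, 188 and 177 CPM against 45.8, 27.1 and 20.8 (log2 difference 2.97 ± 0.23). Actg2, the enteric smooth muscle actin, was 4.54-fold higher in sphincter 1, at 220.4, 163 and 171 CPM against 73.3, 49.9 and 26.7. Ppp1r12a, the targeting subunit of myosin phosphatase, was at 2586, 2129 and 2296 CPM against 1521, 1315 and 1285. Its opponent Mylk, the kinase that phosphorylates myosin, was the reverse, at 3107, 2995 and 2845 CPM in sphincter 1, 5241, 5902 and 5226 in sphincter 2 and 7842, 8389 and 8404 in the dilator. In the list of contractile genes 22 of 23 passed the filter, 4 were called higher in sphincter 1 (Des, Actg2, Ppp1r12a and Cnn1), 2 higher in sphincter 2 (Mylk and Csrp1), and 16 were not called (median 0.11). The called shares were 18.2% and 9.09%, beside 7.76% and 6.2% of all tested genes.

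**Figure D2:**
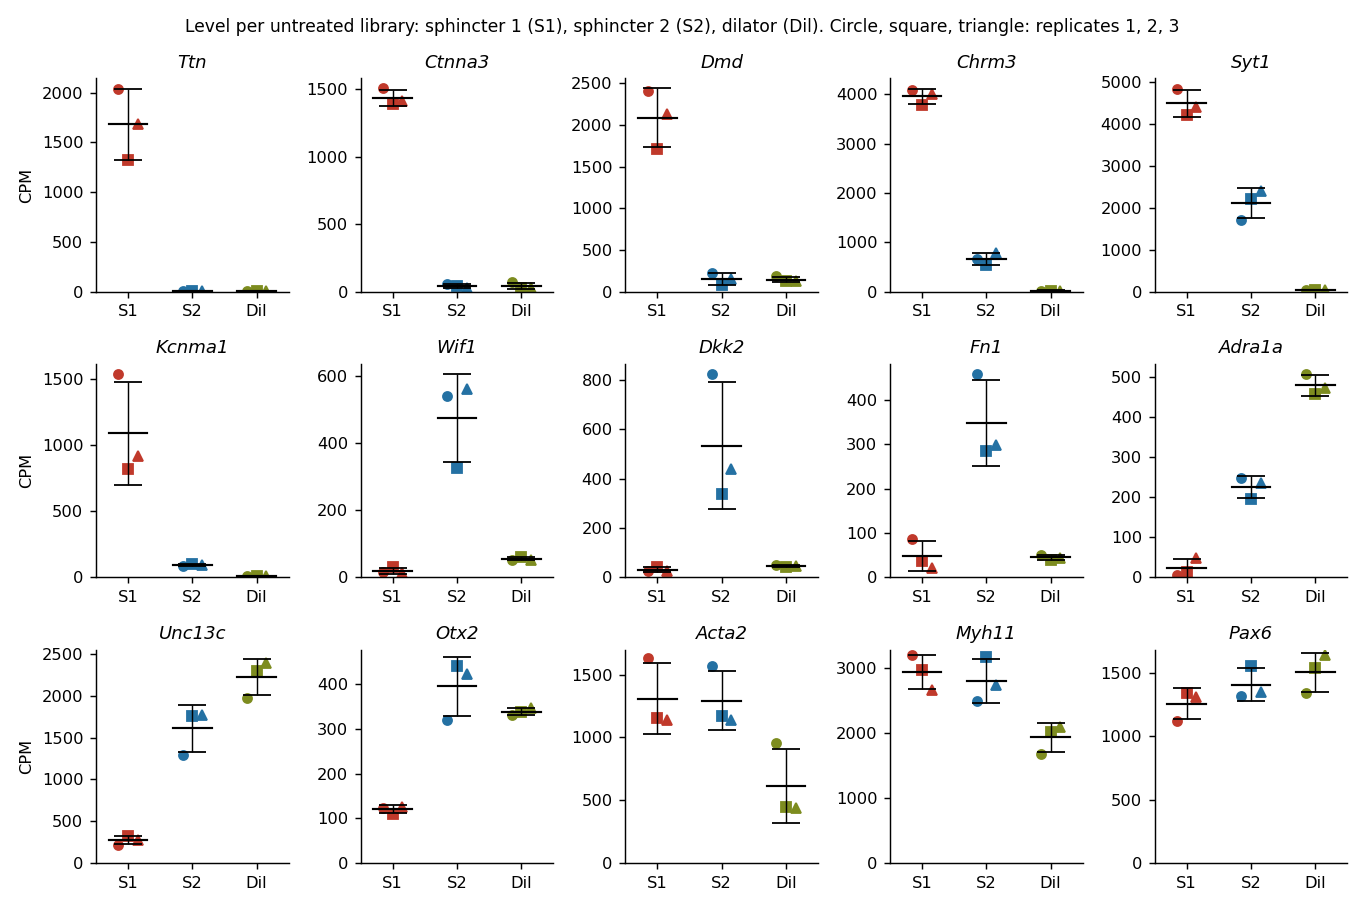
Level of 15 genes (CPM) in sphincter 1, sphincter 2 and the dilator of the untreated irises. Circle, square and triangle are replicates 1, 2 and 3, the bar is their mean and the error bar their SD. Ttn, Ctnna3, Dmd, Chrm3, Syt1 and Kcnma1 are highest in sphincter 1, Wif1, Dkk2 and Fn1 are highest in sphincter 2, Adra1a and Unc13c step up from sphincter 1 to sphincter 2 to the dilator, and Acta2, Myh11 and Pax6 overlap between the sphincter types.

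The receptors for the iris nerves were ordered differently in the types. Chrm3 (chromosome 13, 9875486 to 10360847, minus strand), the Gq-coupled muscarinic receptor of the sphincter, was at 4086, 3787 and 4001 CPM in sphincter 1, against 659.7, 543 and 792 in sphincter 2, with 23.7, 18.0 and 25.3 CPM in the dilator. The 3 muscles did not overlap, and the sphincter 1 level was 6.28-fold that of sphincter 2 (log2 difference 2.65 ± 0.11). A Chrm3 UMI was found in 99.1% of sphincter 1 nuclei, 63.1% of sphincter 2 nuclei and 8.42% of pigment epithelium nuclei, and after thinning in 94.8%, 38.2% and 3.37%. Chrm2, the Gi-coupled muscarinic receptor, was at 333, 274 and 338 CPM against 211, 194 and 181, a log2 difference of 0.80 ± 0.15, and was higher still in the dilator at 675, 579 and 635 CPM. Adra1a (chromosome 14, 66635251 to 66771168, plus strand), the alpha-1 adrenergic receptor, was at 5.38, 12.8 and 48.7 CPM in sphincter 1, 247, 196 and 234 in sphincter 2 and 507, 456 and 473 in the dilator. Replicate 3 of sphincter 1 stood above the other two, and the log2 difference of −2.74 ± 0.21 was −4.13 without it. An Adra1a UMI was seen in 7.17% of sphincter 1, 42.0% of sphincter 2 and 4.22% of pigment epithelium nuclei, and in 2.41%, 17.1% and 1.47% after thinning, so most of the sphincter 1 share was near background. Adra1b and Chrm1 did not pass the filter and had means of 13.2 and 13.2 CPM in sphincter 1, against 6.53 and 4.46 in sphincter 2, and the libraries of the types overlapped for each.

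Among 12 other receptors that could be tested, 3 (25%) were called higher in each type (median −0.06), beside 7.76% and 6.2% of all tested genes. Ramp1, which converts the calcitonin receptor-like receptor into the receptor for CGRP, was at 86.0, 105 and 93.0 CPM in sphincter 1, against 9.16, 6.24 and 7.41 in sphincter 2. Calcrl, its partner, was one of the genes called higher in sphincter 2, with Npr3 and Htr2a. Npr3, the clearance receptor for natriuretic peptides, was at 16.1, 15.9 and 11.7 CPM against 27.5, 87.4 and 66.7. Grm7, a metabotropic glutamate receptor, was at 1301, 1392 and 1385 CPM in sphincter 1, against 109.9, 139 and 218 in sphincter 2. Tacr1, the substance P receptor, was at 430.1, 249 and 299 CPM against 91.6, 166 and 87.5.

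Downstream of these receptors, the calcium machinery leaned to sphincter 1. Of 49 tested genes of Gq signalling and calcium handling, 15 (30.6%) were called higher in sphincter 1 and 3 (6.12%) in sphincter 2 (Prkcb, Plch1 and Plcb1), with a median of 0.21. Over all tested genes the shares were 7.76% and 6.2%, so the sphincter 2 share was that of all genes. Dgkg, a diacylglycerol kinase, was at 53.8, 113 and 93.9 CPM against 0, 4.16 and 8.90. Cacna1a, the P/Q-type calcium channel pore, was at 37.6, 116 and 100.2 CPM against 9.16, 14.6 and 16.3, and Rgs7, a regulator of G-protein signalling, was at 199, 126 and 107 CPM against 18.3, 16.6 and 28.2 (log2 difference 2.49 ± 0.26, or 3.1 without replicate 3). Dgkb, another diacylglycerol kinase, was at 763, 379.5 and 443 CPM against 366, 33.3 and 54.9, and its replicate 1 was also high in the dilator, at 341 CPM against 27.6 and 36.5. The release channels were closer together. Ryr3, a ryanodine receptor, was called at 0.66 ± 0.11, with 1618, 1241 and 1248 CPM against 980.3, 936 and 796. Itpr1, the inositol trisphosphate receptor, had no overlap between the types, at 1667, 1137 and 1284 CPM against 1081, 959 and 918, yet its 0.51 ± 0.11 missed the size threshold. Plcb4, the phospholipase C, missed it in the other direction at −0.56 ± 0.09, with 2704, 2889 and 2866 CPM against 3848, 4549 and 4809.

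Membrane channels and cyclic nucleotide genes followed. Of 26 tested channel genes, 12 (46.2%) were called higher in sphincter 1 and 2 (7.69%) higher in sphincter 2 (median 0.76). Over all tested genes the shares were 7.76% and 6.2%, so the sphincter 2 share of channels was near that of all genes. Kcnma1, the large-conductance calcium-activated potassium channel of smooth muscle, was at 1538, 818 and 918 CPM in sphincter 1, against 82.5, 97.8 and 91.9 in sphincter 2, with at most 9.35 CPM in the dilator. Kcna4, a voltage-gated potassium channel, was at 37.6, 38.3 and 35.2 CPM against 0, 6.24 and 1.48. Kcnip4, an accessory subunit of A-type potassium channels, was reversed, at 903, 772 and 644 CPM against 3289, 3203 and 3259, with 5715, 4856 and 4744 CPM in the dilator. The other channel higher in sphincter 2 was the mechanically gated Piezo1. Among 28 tested cyclic nucleotide genes 6 (21.4%) were higher in sphincter 1 and 4 (14.3%) in sphincter 2 (median −0.02). Gucy1a1, a subunit of the nitric oxide receptor guanylyl cyclase, was at 48.4, 116 and 80.3 CPM against 9.16, 12.5 and 14.8. Prkg1, the cGMP-dependent kinase below it, was at 1139.7, 866 and 947 CPM against 431, 302 and 344. Adcy9, an adenylyl cyclase, was 2.92-fold higher at 237, 210.5 and 190.5 CPM against 64.1, 74.9 and 74.1. Nos1, the neuronal nitric oxide synthase, was low in both, at 10.8, 15.9 and 12.6 CPM in sphincter 1, against 36.6, 45.8 and 20.8 in sphincter 2, and at 218, 253 and 268 CPM in the dilator. Pde3b, a phosphodiesterase, was at 16.1, 20.7 and 12.6 CPM against 64.1, 35.4 and 48.9.

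Both sphincter types carried genes better known from neurons. Syt1, the calcium sensor of synaptic vesicle release, was at 4855, 4211 and 4425 CPM in sphincter 1, against 1713, 2212 and 2412 in sphincter 2, and at 41.1, 38.4 and 41.0 CPM in the dilator. The exocytosis list had 23 tested members, of which 4 were higher in sphincter 1 (Sh3gl2, Stxbp5, Syt1 and Stxbp6), 4 higher in sphincter 2 and 15 not called (median 0.01). Each direction held 17.4% of the list, beside 7.76% and 6.2% of all tested genes. Sh3gl2, an endophilin of vesicle recycling, was at 1150.5, 997 and 1049 CPM against 495, 362 and 368. The 4 higher in sphincter 2 were the release-site proteins Unc13c, Rims1 and Rims2 and the syntaxin-binding Stxbp5l. Unc13c was at 220.4, 319 and 273 CPM in sphincter 1, 1292, 1763 and 1776 in sphincter 2 and 1981, 2299 and 2398 in the dilator. Stxbp5l was at 75.3, 185 and 169 CPM against 275, 589 and 685, and Rims2 at 10.8, 11.2 and 13.5 CPM against 27.5, 39.5 and 37.1.

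Synapse organisers and neuronal RNA-binding proteins numbered 20 tested genes, 9 (45%) higher in sphincter 1 and 4 (20%) higher in sphincter 2 (Lrrtm4, Celf2, Ntng2 and Kctd8), with a median of 0.26. Over all tested genes these shares were 7.76% and 6.2%. Lrrtm3, a postsynaptic adhesion protein, was at 527, 448 and 548 CPM in sphincter 1 and rested on 3 UMIs in sphincter 2, against 986 in sphincter 1 (count ratio 216, 95% interval 73.8 to 1051). Its relative Lrrtm4 was thus on the other side. Rbfox3, the splicing factor known as the neuronal marker NeuN, was at 892, 713 and 699 CPM against 229, 137 and 86.0. Kctd16, an auxiliary subunit of GABA-B receptors, was at 796, 659 and 659 CPM against 82.5, 144 and 139, and Lrrc4c, a netrin-G ligand, was 4.05-fold higher in sphincter 1. Nptx2, a pentraxin that clusters glutamate receptors, was at 124, 112 and 100.2 CPM against 55.0, 37.5 and 19.3, and under 1 CPM in every dilator library.

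Adhesion, matrix and guidance genes had members called in each direction. Summed over the list, junction genes were at 10503 to 12247 CPM in sphincter 1 against 6620 to 8539 in sphincter 2. Axon guidance genes were at 6310 to 6586 against 7596 to 8099 CPM, and matrix genes overlapped at 3690 to 4709 against 3125 to 3949 CPM. Ctnna3 (chromosome 10, 63430098 to 65003667, plus strand), the alpha-T catenin of the heart's cell junctions, was at 1505, 1394 and 1411 CPM in sphincter 1, against 55.0, 45.8 and 26.7 in sphincter 2, a log2 difference of 5.33 ± 0.17. Cdh13, a cadherin without a cytoplasmic tail, was at 151, 105 and 107 CPM against 9.16, 4.16 and 2.97, and the protocadherin Pcdh15 was 9.92-fold higher in sphincter 1. Cdh9, a classical cadherin, was higher in sphincter 2, at 10.8, 9.57 and 0.903 CPM against 82.5, 29.1 and 20.8. Over 20 tested junction genes, 7 (35%) were higher in sphincter 1 and 2 (10%) in sphincter 2 (median 0.32), beside 7.76% and 6.2% of all tested genes. Over 30 matrix genes, 7 (23.3%) were higher in sphincter 1 and 5 (16.7%) in sphincter 2 (median 0.32). The laminin chain Lama4 was at 32.3, 27.1 and 46.0 CPM in sphincter 1 and had 1 UMI in sphincter 2 (count ratio 48.7, 95% interval 8.47 to 1949). Itga9, an integrin alpha chain, was 11.4-fold higher in sphincter 1. The log2 difference of Itga8, another alpha chain, was 3.33 ± 0.44 on 7 sphincter 2 UMIs, and was 2.70 without replicate 2 and 4.12 without replicate 3. Fn1, fibronectin, was at 86.0, 36.7 and 20.8 CPM in sphincter 1, against 458, 285 and 298 in sphincter 2, with 49.9, 39.8 and 44.5 CPM in the dilator. Col25a1, a transmembrane collagen, was at 53.8, 43.1 and 40.6 CPM against 293, 356 and 317. Of 31 axon guidance genes, 7 (22.6%) were higher in sphincter 1 and 6 (19.4%) in sphincter 2 (median 0.01). The secreted repellent Sema3a was at 209.7, 187 and 175 CPM against 0, 8.32 and 16.3, and the transmembrane Sema5a at 618, 644 and 728 CPM against 156, 173 and 113. The Eph receptors Ephb1, at 5.38, 12.8 and 7.22 CPM against 18.3, 60.3 and 65.2, and Epha3, at 32.3, 14.4 and 19.0 CPM against 109.9, 74.9 and 78.6, were higher in sphincter 2.

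Secreted growth factor and morphogen pathways leaned to sphincter 2. Of 50 tested members 19 (38%) were higher in sphincter 2, 8 (16%) in sphincter 1 and 23 were not called, with a median of −0.32 against −0.01 over all genes. Over all tested genes 6.2% were higher in sphincter 2 and 7.76% in sphincter 1. Wif1 (chromosome 10, 121033960 to 121100650, plus strand), a secreted protein that binds and blocks Wnt ligands, was at 16.1, 30.3 and 13.5 CPM in sphincter 1, against 541, 325 and 559 in sphincter 2. The dilator held 53.0, 60.2 and 52.8 CPM, and no other of the 10 types had a higher mean than sphincter 2. A Wif1 UMI was found in 59.7% of sphincter 2, 4.41% of sphincter 1 and 0.780% of pigment epithelium nuclei, and in 33.9%, 1.11% and 0.244% after thinning. Dkk2, a secreted ligand of Wnt co-receptors, was at 26.9, 41.5 and 24.4 CPM against 825, 337 and 440.3, and was higher again in stroma 2 at a mean of 1274 CPM. Bmp5, a bone morphogenetic protein, was at 0, 1.59 and 2.71 CPM against 18.3, 37.5 and 43.0. The Wnt-enhancing ligand Rspo2, its receptor Lgr5, the Wnt receptors Fzd3 and Fzd4 and the inhibitor Sfrp1 were also among the 19. So were the hedgehog pathway genes Hhip and Gli3. Sphincter 1 had the BMP antagonist Grem1, the growth factor Igf1 and the neuregulin receptor Erbb4 among its 8.

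The remaining genes picked by the size of the difference alone had varied functions. Higher in sphincter 1 were Rhoh, a small GTP-binding protein without GTPase activity (80.6, 115 and 108 CPM, count ratio 68.1 on 2 sphincter 2 UMIs, 95% interval 18.6 to 566), the imprinted long noncoding RNA H19 (134, 47.8 and 54.2 CPM, count ratio 75.7 on 1 UMI, interval 13.3 to 3015) and Ahr, the aryl hydrocarbon receptor (124, 60.6 and 52.4 CPM, count ratio 39.2 on 2 UMIs, interval 10.6 to 327). Higher in sphincter 2 was Hmgcll1, a lyase of ketone body synthesis, at 10.8, 4.78 and 2.71 CPM against 156, 64.5 and 54.9. Sphkap, an anchor for protein kinase A, was at 16.1, 35.1 and 22.6 CPM against 257, 199.8 and 203, and Gabrb2, a GABA-A receptor subunit, at 5.38, 17.5 and 13.5 CPM against 64.1, 108 and 122. The neuronal calcium sensor Vsnl1 was 7.05-fold higher in sphincter 2, and the ubiquitin ligase Rnf149 6.76-fold. The log2 difference of the epithelial transcription factor Grhl1 was −2.84 ± 0.40, or −3.97 without replicate 3. Sphkap, Gabrb2 and Vsnl1 were each higher in every dilator library than in any sphincter 2 library.

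Of 45 tested regulators of transcription, 13 (28.9%) were higher in sphincter 1 and 6 (13.3%) higher in sphincter 2, beside 7.76% and 6.2% of all genes, and 26 were not called (median −0.07). Pax6, the eye field regulator, was at 1118, 1343 and 1314 CPM in sphincter 1, against 1319, 1557 and 1349 in sphincter 2, a log2 difference of −0.07 ± 0.10. The homeobox gene Otx2 was higher in sphincter 2, at 124, 110.0 and 126 CPM against 321, 441 and 424, and its relative Otx1 higher in sphincter 1, at 139.8, 201 and 194 CPM against 36.6, 125 and 117. Both differences were called, at −1.71 ± 0.15 for Otx2 and 0.86 ± 0.17 for Otx1. Myf6, a myogenic regulator of skeletal muscle also called MRF4, was at 48.4, 28.7 and 38.8 CPM in sphincter 1 and had no UMI in sphincter 2, so at least 15.4-fold higher. Hdac9, a class II histone deacetylase that represses MEF2 targets, was at 1086, 714 and 898 CPM against 101, 81.2 and 81.5. Mef2c was at 48.4, 23.9 and 28.9 CPM against 0, 2.08 and 4.45, and far higher in leukocytes at a mean of 1946 CPM. Tbx20, a T-box factor of the heart, was 7.34-fold higher in sphincter 1, though highest in the iris pigment epithelium. Zic1 and Zic4 were among the 13, and they also stand in the list of pigment epithelium markers, whose summed level overlapped between the types (75.3 to 332 CPM in sphincter 1, 151 to 262 in sphincter 2, 3093 to 3613 in the pigment epithelium). Only 7 of 25 immediate early genes could be tested, of which Jun and Jund (28.6%) were higher in sphincter 2 (median −0.24). Jun was at 43.0, 11.2 and 9.93 CPM against 55.0, 58.3 and 59.3, and Jund at 26.9, 35.1 and 41.5 CPM against 109.9, 58.3 and 104.

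**Figure D3:**
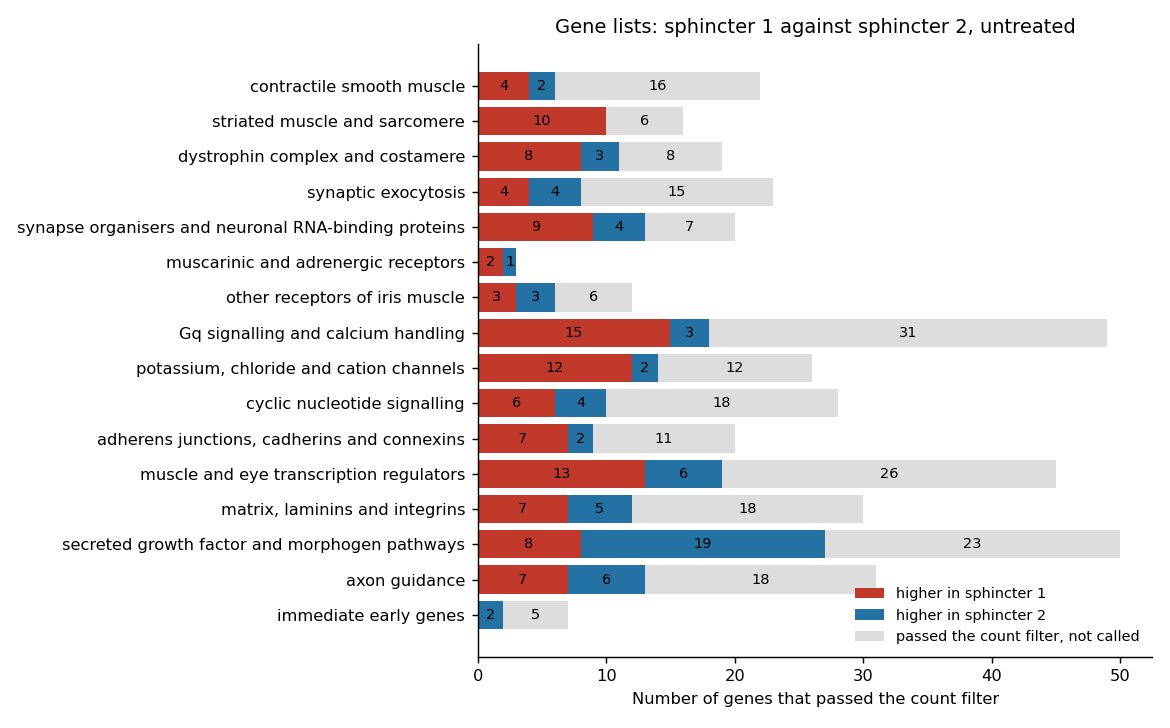
Number of tested genes in each of the 16 gene lists that were called higher in sphincter 1, called higher in sphincter 2 or not called, in the untreated libraries. Striated muscle genes have 10 calls in sphincter 1 and none in sphincter 2, secreted factor genes have 8 and 19, and 16 of 22 contractile smooth muscle genes were not called. Over all tested genes 7.76% were called higher in sphincter 1 and 6.2% in sphincter 2.

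The called genes were also set beside the dilator. They were picked by their sphincter levels, which itself shapes the counts that follow. The same shares over all tested genes were not taken, so the counts are description only. Of the 639 genes higher in sphincter 1, the dilator mean was below that of sphincter 2 in 437 (68.4%), between the types in 187 and above sphincter 1 in 15. Of the 511 genes higher in sphincter 2, the dilator was above sphincter 2 in 264 (51.7%), between the types in 203 and below sphincter 1 in 44. Among the 10 annotated types, sphincter 1 itself had the highest mean for 297 of the 639 genes (46.5%) and the dilator for 4. Stroma 2 had the highest mean for 80 (12.5%), with Pcdh15 and Itga8 among them at means of 1926 and 249 CPM there. Itga9 was highest in stroma 1, at a mean of 1087 CPM. Leukocytes had the highest mean for 64 (10.0%), with Mef2c, Hdac9, Cacna1a, Rhoh and Ahr among them. Endothelial cells had it for 55 (8.61%), with Lama4 among them at a mean of 202 CPM there. Sphincter 2 had it for 132 of the 511 (25.8%) and the dilator for 109 (21.3%). The 5 dilator markers were all called higher in sphincter 2, with sums of 3143 to 3775 CPM in sphincter 2, 382 to 552 CPM in sphincter 1 and 4199 to 4769 CPM in the dilator. Dilator nuclei or their RNA among the sphincter 2 nuclei cannot be told apart from expression by this sum, and their part was not tested. Chrm3 and Syt1 were also far above the dilator in both sphincter types.

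**Figure D4:**
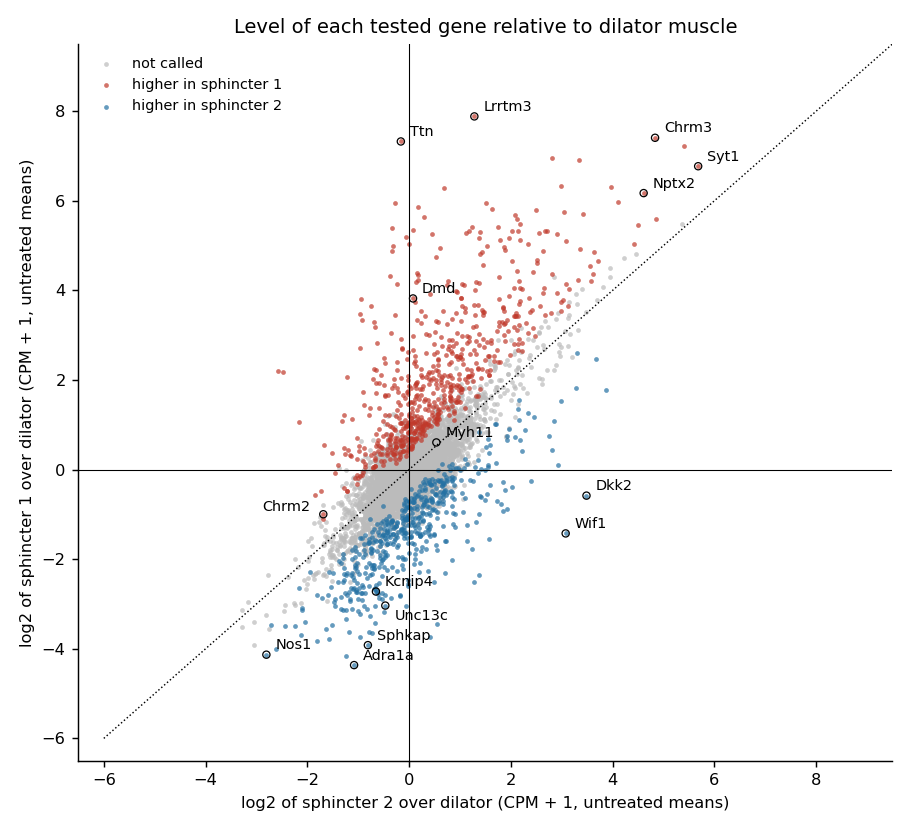
Each point is 1 tested gene, with log2 of its mean level in sphincter 2 over the dilator on the x axis and of sphincter 1 over the dilator on the y axis (CPM + 1, 3 untreated libraries). Solid lines mark equality with the dilator and the dotted line equality of the sphincter types. All but 15 of the 639 red genes (higher in sphincter 1) lie above the horizontal line, and 264 of the 511 blue genes (higher in sphincter 2) lie left of the vertical line, where Adra1a, Unc13c and Kcnip4 are found.

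The types were also compared in the treated libraries, where nuclei had been assigned together with the untreated ones. The untreated difference kept its sign in 606, 591 and 596 of the 639 sphincter 1 genes in constricted replicates 1 to 3, and in 483 and 505 in dilated replicates 1 and 2. For the 511 sphincter 2 genes the numbers were 478, 476 and 471 in the constricted libraries and 417 and 409 in the dilated ones. In all 8 libraries the sign was the same for 361 and 303 genes. Ttn stayed apart in every library, at 1777, 3159 and 2468 CPM in constricted sphincter 1 against 6.49, 0 and 0 in sphincter 2, and at 393 and 510.0 CPM in dilated sphincter 1 against 7.41 and 10.2. Wif1 did so in the other direction, at 19.1 and 30.0 CPM in dilated sphincter 1 against 400.1 and 586 in sphincter 2.

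The change of the difference itself was tested as an interaction of type and condition over all 16 summed profiles. In dilated irises 112 of 7719 genes (1.45%) shifted toward sphincter 1, meaning a higher signed log2 difference of sphincter 1 minus sphincter 2 than in untreated irises, and 145 (1.88%) shifted toward sphincter 2, by edgeR's quasi-likelihood test with Benjamini-Hochberg adjustment. A shift toward a type narrows or reverses the gap of a gene that was lower in that type and widens the gap of a gene that was higher in it. Without dilated replicate 1 the counts were 47 and 79, without dilated replicate 2 they were 47 and 73, and without untreated replicate 3 they were 73 and 81. The change in Kcnma1 was −2.78 ± 0.26 log2 units (edgeR adjusted p = 1.6e-11), with 458 and 395 CPM in dilated sphincter 1 and 263 and 293 CPM in dilated sphincter 2, so that the wide gap of the untreated irises narrowed from both sides but kept its direction without overlap. Casq2 changed by −3.35 ± 0.85 (edgeR adjusted p = 0.0108, −1.96 and not called without dilated replicate 1), at 21.8 and 32.3 CPM against 25.9 and 6.81, where the libraries overlapped. Chrm2 changed by −2.03 ± 0.35 (edgeR adjusted p = 5.43e-05), at 49.1 and 46.2 CPM in dilated sphincter 1 and 159 and 78.4 CPM in sphincter 2, and the order of the types was turned round. Chrm3 changed the other way, by 0.71 ± 0.19 (edgeR adjusted p = 0.0202), at 5203 and 3971 CPM in sphincter 1, against 578 and 351 in sphincter 2. Syt1 likewise shifted toward sphincter 1, by 0.65 ± 0.17 (edgeR adjusted p = 0.0175). The call was lost for Chrm3 and Syt1 without either dilated library or without untreated replicate 3, and for Chrm2 without dilated replicate 1.

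Among the lists, 8 of 47 tested genes of Gq signalling and calcium handling shifted toward sphincter 2 on dilation and none toward sphincter 1, beside 1.88% and 1.45% of all genes. A shift toward sphincter 2 was also called for 5 of 15 striated muscle genes (Jph2, Casq2, Pdlim5, Pdlim3 and Ldb3) and 4 of 22 contractile genes (Synpo2, Actg2, Ppp1r12a and Carmn), again with none toward sphincter 1. The 8 were Plcl1, Rgs7, Atp2a2, Itpr1, Cacna1a, Cacna2d3, Prkca and Dgkg. All of them but Itpr1 and Prkca were called higher in untreated sphincter 1. These 3 lists hold larger shares of such genes than all tested genes do. Of the 639 genes higher in untreated sphincter 1, 92 shifted toward sphincter 2, which is a nearer background for these lists than 1.88%. The part of this in the list counts was not tested. Rgs7 changed by −3.44 ± 0.50 (edgeR adjusted p = 2.14e-06), with 40.9 and 27.7 CPM in dilated sphincter 1 against 66.7 and 68.1 in sphincter 2. Of 20 synapse organisers, 4 shifted toward sphincter 1 (Nlgn1, Negr1, Kctd8 and Kctd16) and none toward sphincter 2, and for Kctd16 the change was 2.35 ± 0.44 (edgeR adjusted p = 0.000204, not called without dilated replicate 2). Of 31 matrix genes, 5 shifted toward sphincter 1 and 3 toward sphincter 2. Fn1, which was higher in sphincter 2, shifted by 2.14 ± 0.35 (edgeR adjusted p = 2.69e-05) and its gap narrowed, with 115 and 78.5 CPM in dilated sphincter 1 and 178 and 208 in sphincter 2. Of 49 secreted factor genes, 3 shifted toward sphincter 1 and 2 toward sphincter 2. The gap of Dkk2, also higher in sphincter 2, narrowed with a change of 2.14 ± 0.49 (edgeR adjusted p = 0.00414, not called without either dilated library), at 30.0 and 32.3 CPM in dilated sphincter 1 against 107 and 92.0 in sphincter 2. The dystrophin list and the other receptors had none in either direction, and the remaining lists had 1 to 3 in each direction. Outside the lists, Rasl11b, a Ras-like GTPase, changed by −4.66 ± 0.56 (edgeR adjusted p = 4.15e-08). Ttn, Ctnna3, Dmd, Wif1 and Adra1a were not called, with changes of −1.88 ± 0.85, −0.98 ± 0.46, −0.72 ± 0.28, 0.21 ± 0.47 and 0.15 ± 0.45.

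**Figure D5:**
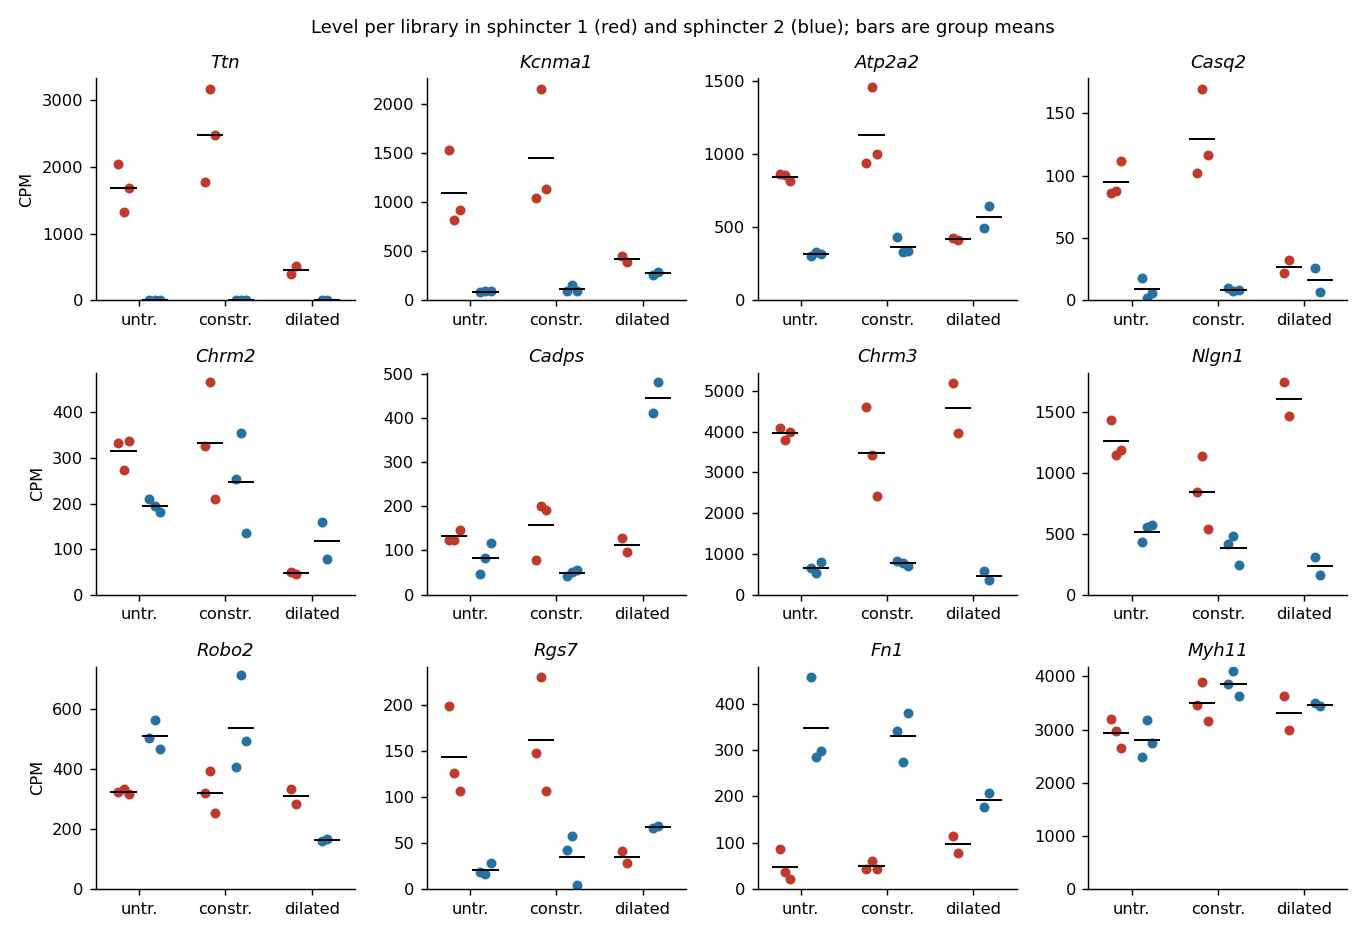
Level of 12 genes (CPM) in each library of the untreated, constricted and dilated groups, with sphincter 1 in red and sphincter 2 in blue; each point is 1 library and the bar the group mean. In the dilated libraries the gap of Kcnma1 is narrower without overlap, the Casq2 points overlap and those of Chrm2 are in reverse order. Chrm3 keeps its direction with a wider gap, and Myh11 overlaps between the types in each group. Atp2a2, Cadps, Nlgn1 and Robo2 were added after their values were seen.

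Levels of the called genes moved in both types. These genes were picked by the sign of the change between the types, which by itself favours the directions counted here. The counts below therefore describe the genes and test nothing. Of the 145 genes that shifted toward sphincter 2, the sphincter 1 mean was lower in dilated than in untreated irises in 136 and the sphincter 2 mean was higher in 136, and the larger of these moves was in sphincter 1 for 78. Of the 112 that shifted toward sphincter 1, the sphincter 2 mean was lower in 108 and the sphincter 1 mean higher in 99, with the larger move in sphincter 1 for 31. Over all tested genes the mean was lower on dilation in 53.8% for sphincter 1 and 55.9% for sphincter 2. Of the 639 genes higher in untreated sphincter 1, 504 still had the higher mean in sphincter 1 after dilation. The 145 held 92 of these 639 genes and 2 of the 511 higher in sphincter 2. In 68 of the 92 the dilated sphincter 1 mean was at or below that of sphincter 2. The 112 held 52 of the 511 and 8 of the 639. Both calls rest on the same untreated libraries, so this overlap is not independent of them. In constricted irises no gene shifted toward sphincter 1 and 2 of 7719 (0.0259%) shifted toward sphincter 2, of which Sybu, a linker of vesicles to kinesin, changed by −1.34 ± 0.27 (edgeR adjusted p = 0.035). Sybu was at 125, 54.5 and 69.7 CPM in constricted sphincter 1 and 354, 289 and 308 CPM in sphincter 2, against 183, 189.8 and 187 CPM and 229, 256 and 304 CPM untreated. In dilated irises Sybu changed the other way, by 2.37 ± 0.28 (edgeR adjusted p = 1.83e-08). It was then at 335 and 339 CPM in sphincter 1 against 85.2 and 98.8 in sphincter 2. The other gene that shifted in constricted irises has no usual symbol. Without constricted replicate 1 there were 4 shifts toward sphincter 1 and 6 toward sphincter 2, without constricted replicate 2 there were 2 toward sphincter 1, and without constricted replicate 3 or untreated replicate 2 none was toward sphincter 2; the Sybu call was lost without constricted replicate 3 or any untreated library. Beside this count, 470 genes had an unadjusted p below 0.05, and DESeq2 called 0 in either direction and gave 90 unadjusted. For dilation 972 genes had an unadjusted p below 0.05 in edgeR and 397 in DESeq2, which called 83. The dilated and constricted comparisons share the untreated libraries.

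Sphincter 1 made up 65.8%, 57.5% and 62.0% of the sphincter nuclei in the untreated libraries (exact 95% binomial intervals 54.0 to 76.3, 51.9 to 63.0 and 57.6 to 66.3), a mean of 61.8% ± 4.15 (SD, n = 3). The share was 51.8%, 54.8% and 54.6% in constricted and 59.2% and 60.6% in dilated irises. The untreated and constricted libraries did not overlap, and the exact two-sided permutation p was 0.1, the smallest that 3 libraries against 3 allow. Sphincter 1 nuclei held fewer UMIs in each untreated library, with a ratio of medians to sphincter 2 of 0.843, 0.952 and 0.976 (mean 0.924 ± 0.0707, SD, n = 3).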

How the data were processed

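Libraries were prepared with 10x Chromium chemistry. The authors aligned reads with Cell Ranger 3.1.0 to an mm10 index of unspliced transcripts, and the deposited matrices hold raw UMI counts per gene and nucleus. The deposited annotation gives each nucleus's type, from clustering with Seurat by the authors, and its percent of mitochondrial UMIs. By the study's methods, nuclei above 1% mitochondrial or outside 500 to 6000 transcripts were removed, and the clustering used these same counts. The study's mean transcript numbers per nucleus lie well below the UMI medians and near the gene medians. Its transcripts are therefore read here as detected genes and not as UMIs.

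Untreated libraries held 5189437, 19259432 and 20000682 UMIs. Raw counts were summed per library and type. Types were compared in edgeR 4.0.16 (R 4.3.3) by a quasi-likelihood fit with terms for library and type, TMM factors and filterByExpr. The treated libraries entered a joint fit with a type by condition interaction. A gene was called at an absolute log2 difference above 0.6 and an adjusted p below 0.05. Both types of a library come from 1 tissue pool, and their deviations from the type means correlated at 0.225, 0.153 and 0.166 within libraries, so library was a block. Replicate numbers do not pair conditions. Doublets were called with Scrublet in scanpy 1.11.5, and left in. For shares of nuclei with a UMI, nuclei were also thinned to 1000 UMIs, leaving out shallower ones, which kept 540 sphincter 1, 351 sphincter 2 and 3682 pigment epithelium nuclei. Fits were tested on simulated data.

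The members and gene lists were chosen with earlier results of these data known. Genes were named by rule: the 10 with the largest called difference in each direction at 50 CPM or more and of 1 sign in all 3 libraries, the 4 largest called members of each list, receptors of at least 10 CPM, study genes, and the 5 largest changes per direction and treatment. Other list members, and the treated values of list genes, were named after their values were seen. Some genes that the rule picks are not reported here. Alternatives were DESeq2 1.42.0, other size factors, no count filter, no block, other thresholds, and leaving out doublets, shared barcodes or single libraries. Gene positions are from GENCODE and promoters from RefSeq.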

Additional observations from a re-analysis of the deposited data

Results flagged for a closer look

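The genes below were picked out because the difference between sphincter 1 and sphincter 2 was not the same in treated and untreated irises, by the interaction test of edgeR's quasi-likelihood fit with Benjamini-Hochberg adjustment. Changes are given in log2 units as the treated minus the untreated difference, so a negative change is a shift toward sphincter 2 and a positive change a shift toward sphincter 1, whichever type was higher. The dilated comparison rests on 2 libraries, and no cause was tested.

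In dilated irises the change was −5.20 in Nr4a1, an immediate early nuclear receptor at 5.45 and 50.8 CPM in dilated sphincter 1 and 33.3 and 252 CPM in dilated sphincter 2 (edgeR adjusted p = 3.31e-05). It was −5.10 in Klhl41, a sarcomere-associated kelch protein at 2.73 and 6.92 against 7.41 and 13.6 CPM (edgeR adjusted p = 0.00758), and −4.78 in Trim36, a ubiquitin ligase at 8.18 and 2.31 against 0 and 13.6 CPM (edgeR adjusted p = 0.0482). Klhl41 and Trim36 each rested on 3 UMIs in untreated sphincter 2, and Nr4a1 on 2. The dilated values of Klhl41 and Trim36 were also low, at most 13.6 CPM in either type. The SEs of these changes were 0.87 for Nr4a1, 1.25 for Klhl41 and 1.44 for Trim36, so their sizes are imprecise. The change was −4.66 in Rasl11b, at 13.6 and 66.9 against 48.2 and 204 CPM, and −4.56 in Ubash3b, a phosphatase of immune cell signalling at 32.7 and 11.5 against 40.7 and 17.0 CPM. Among the list genes it was −3.44 in Rgs7, −3.35 in Casq2, −2.78 in Kcnma1 and −2.03 in Chrm2.

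The change was 4.08 ± 0.93 (SE) in Klhl14, a kelch protein with untreated means of 15.9 CPM in sphincter 1 and 43.1 in sphincter 2. Its dilated values were 43.6 and 13.8 CPM against 7.41 and 0, so few counts stand behind dilated sphincter 2. For Col11a1, a fibrillar collagen with untreated means of 19.7 against 143 CPM, the change was 2.76. The dilated libraries had 95.4 and 32.3 against 66.7 and 27.3 CPM. Sphincter 1 was thus higher within each dilated library, though the types overlapped across libraries. The change was 2.56 in Cmc1, a mitochondrial assembly factor, and 2.53 in Lrrn3, a neuronal leucine-rich repeat protein. Both were higher in sphincter 2 untreated and in sphincter 1 in each dilated library. Kctd16 changed by 2.35, Dkk2 by 2.14 and Fn1 by 2.14. Chrm3 and Syt1 showed the smallest of these changes, 0.71 and 0.65. In constricted irises the change was −1.34 in Sybu, whose change in dilated irises was 2.37 (edgeR adjusted p = 1.83e-08). The change in Trim36 turned to 0.37 without dilated replicate 2. Without dilated replicate 1 the calls of Klhl14, Col11a1 and Lrrn3 were lost, without dilated replicate 2 those of Nr4a1 and Kctd16, and without either those of Klhl41, Cmc1 and Dkk2, while Rasl11b, Ubash3b, Rgs7, Kcnma1 and Fn1 kept theirs under every alternative that gave them a value.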

How the results depend on the processing

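Of 962 alternative values for 92 named genes in the untreated comparison, 929 kept their direction and call, 31 (14 genes) kept the direction only, 2 gained a call and 0 reversed. DESeq2 called 336 genes higher in sphincter 1 and 225 higher in sphincter 2, leaving out 1 library gave 371 to 694 and 282 to 557 (the lowest without replicate 3), and asking for a log2 difference above 1 left 322 higher in sphincter 2. Pairing was by library, and without the replicate block for the library the untreated counts were 590 and 459. Dropping the block in the dilated comparison left 41 shifts toward sphincter 1 and 64 toward sphincter 2, DESeq2 left 31 and 52, and leaving out 1 library gave 47 to 151 and 73 to 178. Of 278 alternative values for 19 genes there, 239 kept direction and call, 38 the direction only, and 1 reversed, as the change in Trim36 was 0.37 without dilated replicate 2 (its range on leaving out 1 library was −6.74 to 0.37). Shifts toward sphincter 2 in constricted irises numbered 0 by DESeq2, without the replicate block, without doublets, with equal UMIs and without shared barcodes, 4 without the count filter and 0 to 6 on leaving out 1 library, when those toward sphincter 1 numbered 0 to 4. Without shared barcodes, an alternative chosen after seeing the data, the untreated counts were 648 and 519. The dilator was above sphincter 2 in 52.1% of sphincter 2 genes of at least 50 CPM and in 51.1 to 52.4% on leaving out 1 library. The causes were not tested. Depth limits genes with few sphincter 2 UMIs, and replicate 1 has 26 sphincter 2 nuclei.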
